A study of Mus musculus with 32 samples.

Results

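The genes of glucose uptake and glycolysis followed here are the glucose transporter gene Slc2a1 and the enzyme genes Hk1, Hk2, Gpi1, Aldoa, Tpi1, Pgk1, Pgam1, Eno1 and Ldha, chosen by symbol in the probe annotation of an Illumina bead array. Of these 10 genes, 8 had an annotated probe, 10 probes in all of the 25697 on the array, and the 8 stand among 16593 named genes. Gpi1 and Eno1 had no annotated probe and were not analysed here. In RefSeq, Slc2a1 and Eno1 lie on chromosome 4, Hk2 and Tpi1 on chromosome 6, Gpi1, Aldoa and Ldha on chromosome 7, Hk1 on chromosome 10, Pgam1 on chromosome 19 and Pgk1 on chromosome X. The arrays measured RNA from whole lung and trachea of mice with and without Car6, whose product is a carbonic anhydrase found in saliva. The groups were trachea of 6 Car6-/- and 8 wild-type mice and lung of 6 Car6-/- and 8 wild-type mice, all C57BL/6 males aged 2 months. How the Car6-/- allele was made, and whether a lung and a trachea came from the same animal, is not given in the sources used here, and no treatment is recorded. Nothing beyond the numbering says that samples of a group came from separate animals, so p-values measure the spread between these samples. Values below are normalized log2 intensities, so a difference of 1 is a doubling, and a change is called when its Benjamini-Hochberg adjusted p from limma over all genes tested is under 0.05.

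Glycolysis turns glucose into pyruvate in a chain of enzymes in the cytosol. GLUT1, the product of Slc2a1, lets glucose into the cell, and hexokinases trap it there as glucose 6-phosphate. Gpi1 turns this into fructose 6-phosphate, aldolase A splits fructose 1,6-bisphosphate, and triosephosphate isomerase, the product of Tpi1, interconverts the triose phosphates that result. Phosphoglycerate kinase (Pgk1) makes ATP, phosphoglycerate mutase (Pgam1) and enolase (Eno1) lead on to pyruvate, and lactate dehydrogenase A reduces pyruvate to lactate. Skeletal muscle relies on its own forms of several steps, among them muscle phosphofructokinase (Pfkm), enolase 3 and Pgam2, and is rich in Hk2 and Aldoa. Many genes of the chain are known targets of hypoxia-inducible factors.

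Of the members with a probe, 7 were detected (detection p under 0.01) in all 28 samples. Pgk1 was detected in 2 of 28 samples, and was not tested. Each array detected 11735 to 13139 probes. Car6 itself was detected in 0 of the 28 samples, so the array does not check the genotype. The tissue labels matched their markers: all 7 alveolar type 2 markers were detected in every lung, all 5 basal epithelium markers in every trachea, and the basal markers Krt5 and Trp63 in 0 of 14 lungs. Some samples stood apart in what other tissue they held. Summed over 16 skeletal muscle markers, the linear intensity reached only 3999 for Car6-/- trachea 1 and 32172 for Car6-/- trachea 2. The other 4 Car6-/- tracheas had 66672 to 95350, against 88428 to 136663 for the wild-type tracheas. In lung the sum was 21441 in Car6-/- lung 5 and 535 to 938 in the other 5 Car6-/- lungs, against 711 to 4829 in wild-type lungs. Alveolar type 2 markers summed to 17372 and 21658 in Car6-/- tracheas 1 and 2, against at most 2985 in any wild-type trachea. Thyroid markers summed to 244 to 17353 over the Car6-/- tracheas, lowest in samples 7, 1 and 2, against 15351 to 19175 over the wild-type ones. Cardiac muscle markers summed to 41602 in Car6-/- trachea 1, against at most 6954 in any wild-type trachea. A second array was run for 4 samples, and that of wild-type trachea 2 lay nearer to another sample (root mean square difference 0.309) than to its own first array (0.330).

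Trachea against lung gave the large differences. In Car6-/- mice 6 of 7 members tested were called higher in trachea, where 20.4% of 9500 genes were called higher and 28.1% lower (48.5% in all), with a median change of 1.14, against -0.07 over all genes. In wild-type mice all 7 were called higher, where 29.8% of 10019 genes were called higher and 38.5% lower (68.3% in all), with a median of 1.12, against -0.09 over all genes. No member was called lower in either genotype. In tissue RNA, a different share of cells of a type and a different amount of RNA per cell cannot be told apart.

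**Figure D1:**
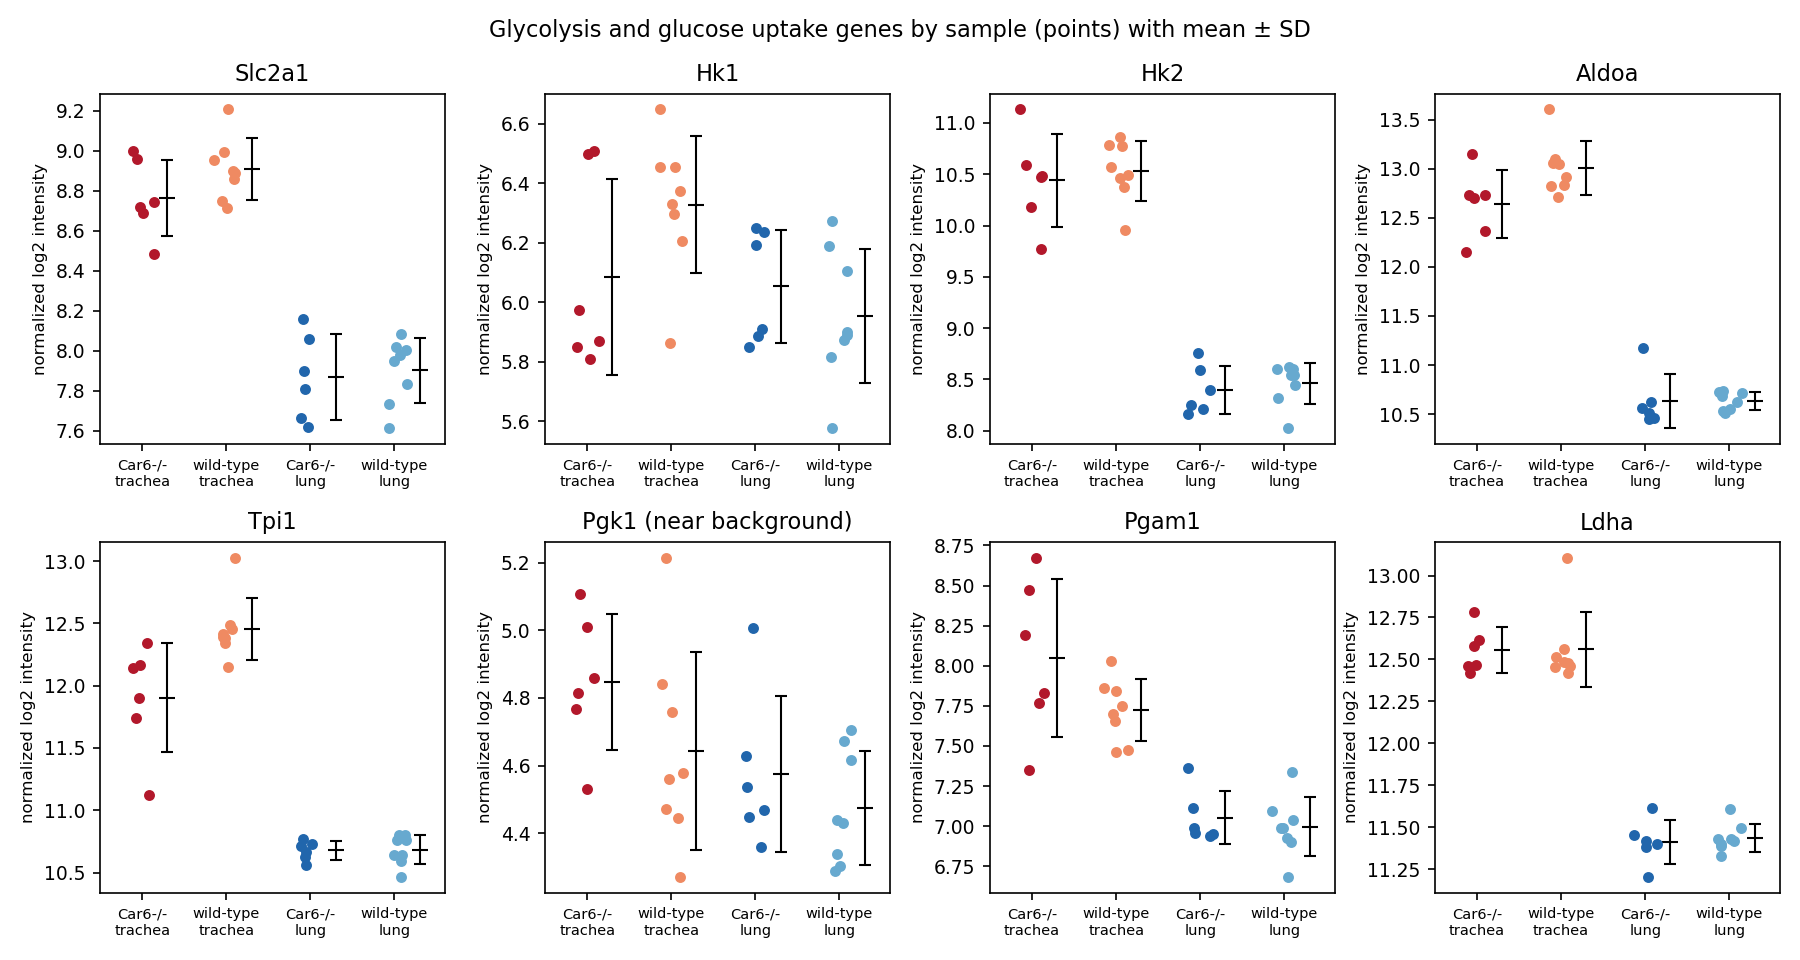
Normalized log2 intensity of the 8 genes with a probe, 1 panel a gene, in Car6-/- trachea (n = 6), wild-type trachea (n = 8), Car6-/- lung (n = 6) and wild-type lung (n = 8); points are samples, bars are the mean ± SD, and the axes do not start at 0. For Slc2a1, Hk2, Aldoa, Tpi1 and Ldha every trachea lies above every lung, while Hk1 and the near-background Pgk1 overlap between tissues.

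Slc2a1 (probe ILMN_1258159), the basal glucose transporter of most cells, ranged from 8.48 over a median of 8.73 to 9.00 in Car6-/- trachea, against 7.62, 7.85 and 8.16 in Car6-/- lung. In wild-type mice it ranged from 8.71 over 8.90 to 9.21 in trachea, against 7.61, 7.96 and 8.08 in lung. Every trachea lay above every lung in both genotypes. The change was 0.90 ± 0.12 (SE) in Car6-/- mice (adjusted p = 6.16e-05), a 1.86-fold difference, and 1.01 ± 0.08 in wild-type mice (adjusted p = 7.43e-09), a 2.01-fold difference. Within a tissue, the genotypes overlapped over most of their ranges.

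Hk2 (ILMN_1239397), the insulin-responsive hexokinase of muscle and fat, ranged from 9.77 over 10.48 to 11.13 in Car6-/- trachea, against 8.16, 8.32 and 8.75 in Car6-/- lung, a change of 2.05 ± 0.20 (adjusted p = 3.83e-06). In wild-type mice Hk2 ranged from 9.95 over 10.53 to 10.86 in trachea, against 8.02, 8.54 and 8.62 in lung, a change of 2.07 ± 0.12 (adjusted p = 5.85e-11) or 4.21-fold. No trachea overlapped a lung. Hk1 (ILMN_2644025), the housekeeping form that binds mitochondria, was dim in every group. It ranged from 5.81 over 5.92 to 6.51 in Car6-/- trachea, against 5.85, 6.05 and 6.25 in Car6-/- lung, a change of 0.03 ± 0.15 (adjusted p = 0.883). In wild-type mice Hk1 ranged from 5.86 over 6.35 to 6.65 in trachea, against 5.58, 5.90 and 6.27 in lung, a change of 0.38 ± 0.11 (adjusted p = 0.00667), and 6 of 8 tracheas lay above every lung. Hk1 was thus called in one genotype and not in the other, but the tissue difference in Car6-/- mice minus that in wild-type mice, -0.34 ± 0.19, was not called (adjusted p = 0.412).

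The log2 difference Hk2 minus Hk1 within a sample is given as a description with no test, since the pair was chosen after the values of both were seen. It was 2.01 higher in Car6-/- trachea than in Car6-/- lung, and 1.70 higher in wild-type trachea than in wild-type lung. Between genotypes it moved by 0.15 in trachea and by -0.17 in lung. A single difference of this kind compares probes and has no meaning as a ratio of transcripts, so only its shift between groups is given.

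Aldoa (ILMN_2599130), which encodes the aldolase of muscle and most other adult tissues, had the largest tissue difference of the 7 in wild-type mice. It ranged from 12.15 over 12.72 to 13.15 in Car6-/- trachea, against 10.45, 10.54 and 11.18 in Car6-/- lung, a change of 2.01 ± 0.17 (adjusted p = 2.03e-06) or 4.03-fold. In wild-type mice Aldoa ranged from 12.71 over 12.98 to 13.61 in trachea, against 10.51, 10.66 and 10.73 in lung, a change of 2.38 ± 0.10 (adjusted p = 8.01e-13) or 5.19-fold. The lowest trachea was 0.97 above the highest lung.

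Tpi1 was read by 3 probes. The brightest (ILMN_1230137) ranged from 11.12 over 12.02 to 12.34 in Car6-/- trachea, against 10.56, 10.69 and 10.77 in Car6-/- lung, a change of 1.23 ± 0.17 (adjusted p = 7.51e-05). In wild-type mice it ranged from 12.15 over 12.40 to 13.03 in trachea, against 10.47, 10.70 and 10.80 in lung, a change of 1.77 ± 0.10 (adjusted p = 3.05e-11) or 3.41-fold. The spread among Car6-/- tracheas (SD 0.44) was several times that among Car6-/- lungs (SD 0.07). The other probes, each tested on its own, went the same way: ILMN_2932359 by 1.34 ± 0.21 in Car6-/- and 1.92 ± 0.12 in wild-type mice, and the dim ILMN_1231447 by 0.59 ± 0.17 in Car6-/- and 0.73 ± 0.14 in wild-type mice. All were called (highest adjusted p = 0.0103).

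Pgam1 (ILMN_2856157), the brain and broadly used form of phosphoglycerate mutase, ranged from 7.35 over 8.01 to 8.67 in Car6-/- trachea, against 6.94, 6.97 and 7.36 in Car6-/- lung. Its change there was 0.99 ± 0.20 (adjusted p = 0.00107), and 5 of 6 tracheas lay above every lung. In wild-type mice it ranged from 7.46 over 7.72 to 8.03 in trachea, against 6.68, 6.99 and 7.34 in lung, a change of 0.73 ± 0.10 (adjusted p = 2.89e-06) with all 8 tracheas above every lung. Ldha (ILMN_1257965), which sets the step to lactate, ranged from 12.42 over 12.52 to 12.79 in Car6-/- trachea, against 11.20, 11.41 and 11.61 in Car6-/- lung, a change of 1.14 ± 0.10 (adjusted p = 1.79e-06) or 2.21-fold. In wild-type mice Ldha ranged from 12.42 over 12.48 to 13.10 in trachea, against 11.33, 11.42 and 11.61 in lung, a change of 1.12 ± 0.09 (adjusted p = 3.46e-09) or 2.18-fold. No trachea overlapped a lung for Ldha, and its tissue difference was alike in size in the genotypes, differing by 0.02 (95% confidence interval -0.24 to 0.28).

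Skeletal muscle markers lay higher in trachea too: all 16 on the array were called higher in wild-type mice, and all 14 tested in Car6-/- mice, and Cacng1 and Casq1 were detected in 0 of 14 lungs. Car6-/- trachea 1 had a muscle sum of 3999, under the 4829 of wild-type lung 6 and the 21441 of Car6-/- lung 5. The same sample held 41602 of cardiac muscle markers, 17372 of alveolar type 2 markers and 7099 of adipocyte markers, against at most 6954, 2985 and 3680 in any wild-type trachea. Apart from Hk1, its tested members stood above every lung, at 8.69 for Slc2a1, 10.47 for Hk2, 12.37 for Aldoa, 11.74 for Tpi1, 8.19 for Pgam1 and 12.58 for Ldha. Car6-/- lung 5 was the highest of any lung for Aldoa at 11.18, for Hk2 at 8.75 (wild-type lungs up to 8.62), for Ldha at 11.613 (wild-type lungs up to 11.610) and for the near-background Pgk1 at 5.01. In the same lung Hk1 stood at 6.19, Tpi1 at 10.66 and Pgam1 at 6.96, within the range of the other lungs, and Slc2a1 at 7.62, the lowest of its group. The part of muscle and other tissue in the members' tissue differences was not tested. Without Car6-/- tracheas 1, 2 and 6 together, 6 of 7 members were called higher in Car6-/- trachea than in Car6-/- lung. In that fit 20.3% of 9005 genes were called higher. Tracheas 1 and 2 have the lowest muscle sums of any trachea, so this fit cannot show the part of muscle.

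**Figure D2:**
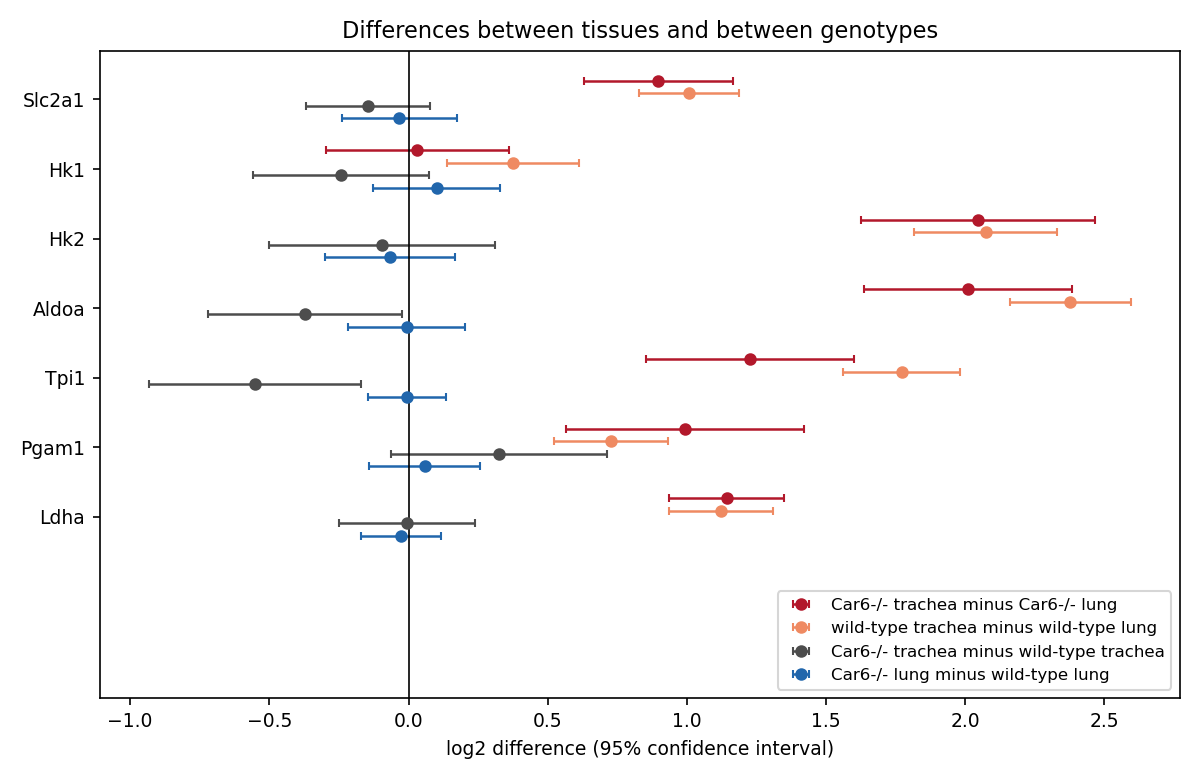
Log2 difference with its 95% confidence interval for the 7 tested members: trachea minus lung in Car6-/- and in wild-type mice, and Car6-/- minus wild type in trachea and in lung. The tissue differences lie between 0.73 and 2.38 except for Hk1, and the genotype differences lie between -0.55 and 0.32.

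The promoters of the members were read for short motifs. All 10 members matched RefSeq promoter entries (GRCm38.p6), in 16 windows of the 250 bases before an annotated start. The core of the hypoxia response element (ACGTG or GCGTG, either strand, overlapping matches joined) was in 12 of 16 windows, against 38.6% of 32851 windows of that length. At least 1 window held it in 8 of 10 genes, some of which have several windows, and no share over all genes was taken. Aldoa windows 2 and 3 overlap, as do Eno1 windows 2 and 3, and each pair shares matches, so the counts of windows include sites read more than once. Gpi1 and Tpi1 had no match in their windows. The GC box GGGCGG was in 10 of 16 windows, against 32.7% of all, the E-box CAGCTG in 1 of 16, against 13% of all, and the MEF2-type box (CTA, then 4 bases of any kind, then TAG) in 0 of 16, against 3.2% of all. The motifs describe the letters only. Tpi1, whose tracheas all lay above every lung, has no match to the core. Hk1 and Pgam1 hold matches, though not all of their tracheas lay above every lung. Windows that hold the core are shown for 4 members whose tracheas all lay above every lung, 5′ to 3′ on the strand of the gene, with matches to the hypoxia core in capitals: Slc2a1 at chr4:119108495-119108744 (+), Hk2 at chr6:82774455-82774704 (-), the second Aldoa start at chr7:126799255-126799504 (-) and the first Ldha start at chr7:46845554-46845803 (+).
Slc2a1: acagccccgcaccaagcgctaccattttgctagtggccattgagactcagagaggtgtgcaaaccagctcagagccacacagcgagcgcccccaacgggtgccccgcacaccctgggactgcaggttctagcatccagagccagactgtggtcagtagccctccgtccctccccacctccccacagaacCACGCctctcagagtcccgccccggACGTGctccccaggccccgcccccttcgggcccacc
Hk2: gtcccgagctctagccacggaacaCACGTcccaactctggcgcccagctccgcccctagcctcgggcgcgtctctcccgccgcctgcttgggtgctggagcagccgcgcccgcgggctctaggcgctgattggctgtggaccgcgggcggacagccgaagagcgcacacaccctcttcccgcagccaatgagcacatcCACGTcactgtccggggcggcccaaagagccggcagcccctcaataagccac
Aldoa: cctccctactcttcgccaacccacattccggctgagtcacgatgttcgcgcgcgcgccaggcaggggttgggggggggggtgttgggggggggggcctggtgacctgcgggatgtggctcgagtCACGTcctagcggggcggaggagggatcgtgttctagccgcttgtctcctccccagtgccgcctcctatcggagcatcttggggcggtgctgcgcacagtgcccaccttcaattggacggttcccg
Ldha: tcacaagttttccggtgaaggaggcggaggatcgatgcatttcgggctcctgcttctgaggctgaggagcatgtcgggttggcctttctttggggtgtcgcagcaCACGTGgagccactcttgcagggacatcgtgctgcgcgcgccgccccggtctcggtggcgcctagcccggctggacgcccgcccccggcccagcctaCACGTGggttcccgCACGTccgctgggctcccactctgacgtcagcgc
In Slc2a1 the matches began 61 and 36 bases before the start, in Hk2 226 and 52 bases, in Aldoa 126 bases, and in Ldha 145, 48 and 34 bases before it. In Ldha the first pair of these are the palindrome CACGTG, which holds the core on each strand.

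The other enzymes of the chain did not all go one way. Of 26 further glycolysis genes listed, 21 were on the array and 14 were tested between the tissues. In each genotype 8 were called higher and 5 lower in trachea, with a median change of 1.00 in Car6-/- and 0.82 in wild-type mice. Of all genes, 20.4% were called higher and 28.1% lower in Car6-/- trachea, and 29.8% and 38.5% in wild-type trachea. The muscle forms had the largest differences: Eno3 was higher by 3.88 ± 0.49 in Car6-/- and 5.08 ± 0.24 in wild-type trachea, Pgam2 by 3.63 ± 0.50 in Car6-/- and 4.87 ± 0.34 in wild-type trachea, and Pfkm by 2.42 ± 0.35 in Car6-/- and 3.52 ± 0.18 in wild-type trachea. Gapdh, the step after Tpi1, was higher by 1.24 ± 0.11 in Car6-/- and by 1.42 ± 0.09 in wild-type trachea. The liver form Pfkl was higher by 1.37 ± 0.22 in Car6-/- and by 0.65 ± 0.07 in wild-type trachea, by its brighter probe. Its dim probe ILMN_2871325, tested on its own, was called in neither genotype. It stood at 0.34 ± 0.23 in Car6-/- (adjusted p = 0.256) and -0.07 ± 0.15 in wild-type mice (adjusted p = 0.685). Hkdc1, a further hexokinase, was among the 5 called lower in each genotype, the others of which are not named here. It was detected in every lung and in 0 of 14 tracheas, and was at least 2.69-fold lower in Car6-/- trachea (adjusted p = 8.29e-07) and at least 3.00-fold lower in wild-type trachea (adjusted p = 3.5e-15), from the lung mean over the lowest detectable level in each trachea.

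**Figure D3:**
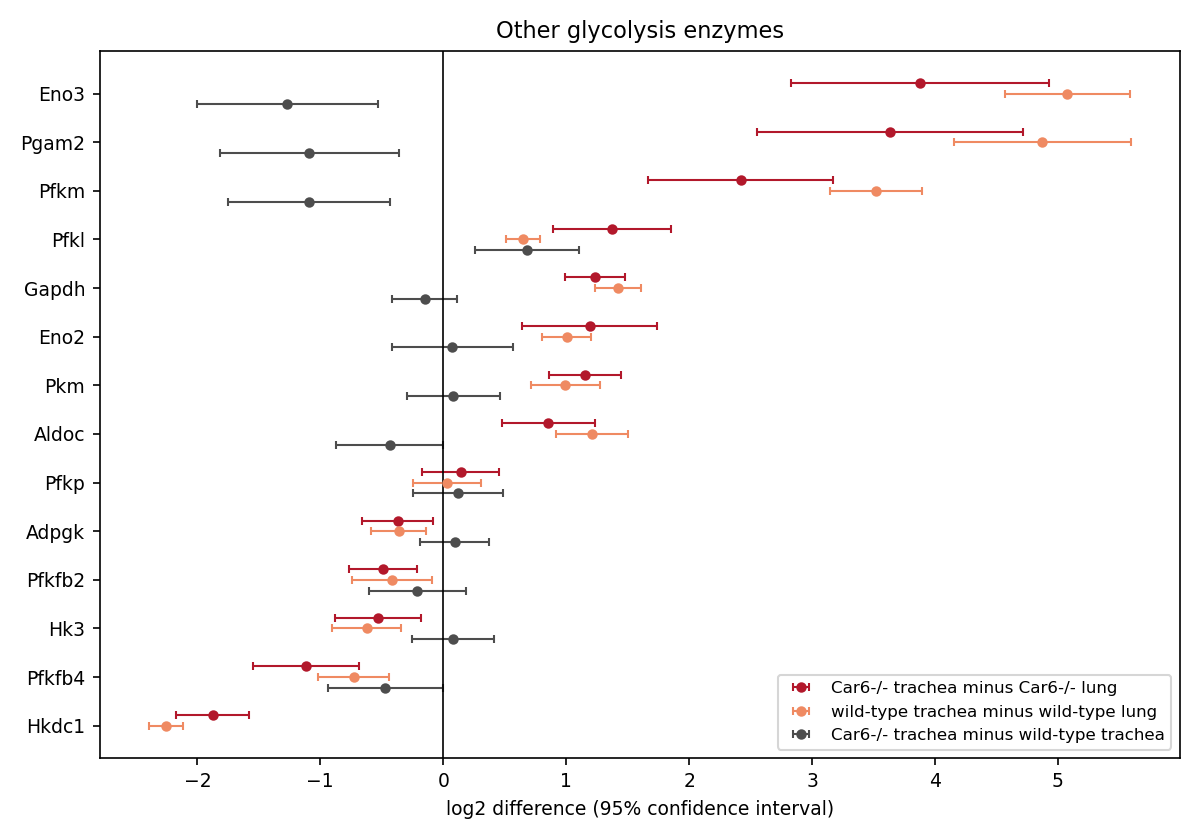
Log2 difference with its 95% confidence interval for the 14 other glycolysis enzymes tested, sorted by the tissue difference in Car6-/- mice: trachea minus lung in Car6-/- and in wild-type mice, and Car6-/- minus wild type in trachea. Eno3, Pgam2 and Pfkm lie farthest to the right between tissues and are negative between genotypes; the Hkdc1 points are fitted values, since no trachea detected it, and it was not tested between genotypes in trachea.

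Neighbouring routes of glucose were read from further lists. Beside their counts, 20.4% of all genes were called higher and 28.1% lower in Car6-/- trachea than in lung (48.5% in all). In wild-type trachea these shares were 29.8% and 38.5% (68.3% in all). Of 10 other glucose transporter genes, Slc2a4, the insulin-regulated transporter of muscle and fat, was called higher in trachea in both genotypes, by 3.00 ± 0.30 in Car6-/- and 2.94 ± 0.16 in wild-type mice. It was the only one called of 5 tested in Car6-/- mice. Of 6 tested in wild-type mice, Slc2a4 and the sodium-glucose carrier Slc5a1 (0.71 ± 0.13) were called higher, and Slc2a3 (-0.63 ± 0.11) and Slc2a8 (-0.33 ± 0.12) lower. Of the genes of lactate and pyruvate transport and pyruvate dehydrogenase, 7 of 9 tested were called higher in Car6-/- and 8 of 9 in wild-type trachea. They included the pyruvate dehydrogenase subunit Pdhb, by 2.17 ± 0.26 in Car6-/- and 1.53 ± 0.11 in wild-type mice, and its inhibitor kinase Pdk4, by 3.11 ± 0.31 in Car6-/- and 2.81 ± 0.25 in wild-type mice. The lactate carrier Slc16a1 was detected in no sample. Of the gluconeogenesis genes, 3 of 4 tested were called higher in Car6-/- and 4 of 4 in wild-type trachea, with the muscle form Fbp2 at 3.00 ± 0.41 in Car6-/- and 4.00 ± 0.16 in wild-type mice. Hypoxia response genes outside glycolysis did not all go one way. Of 13 tested, 4 were called higher and 3 lower in Car6-/- trachea, and 7 higher and 2 lower in wild-type trachea. Adding higher and lower calls, the share was near that of all genes in each genotype (48.5% in Car6-/- and 68.3% in wild-type trachea). By direction, more of the 13 were called higher than lower in each genotype, while more of all genes were called lower than higher. The difference in split was not tested. Vegfa, the vessel growth factor gene, was lower in trachea, at -1.73 ± 0.13 in Car6-/- and -1.64 ± 0.14 in wild-type mice, and Ndrg1 higher, at 1.06 ± 0.15 in Car6-/- and 1.01 ± 0.09 in wild-type mice.

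Between Car6-/- and wild-type trachea no member was called (0 of 7), where 0% of 9736 genes were called by limma. At an unadjusted p under 0.05 stood 2 of 7 members and 17.2% of all genes. The median change of the 7 was -0.14, against 0.04 over all genes. Both members with an unadjusted p under 0.05 had lower values in Car6-/- trachea. Tpi1 (ILMN_1230137) had a change of -0.55 ± 0.18 (limma adjusted p = 0.168), with 4 of 6 Car6-/- tracheas below every wild-type trachea, and its lowest value, 11.12, in Car6-/- trachea 2. Its second bright probe had 5 of 6 Car6-/- tracheas below every wild-type trachea, at 10.28 to 11.70 in Car6-/- against 11.58 to 12.46 in wild-type trachea (-0.65 ± 0.21, adjusted p = 0.169), and the dim probe stood at -0.12 ± 0.17 (adjusted p = 0.757). Tpi1 passed without Car6-/- trachea 4 (-0.64, adjusted p = 0.0475) and with all 4 groups in the fit (adjusted p = 0.0114), and stood at -0.24 without Car6-/- tracheas 1, 2 and 6. Aldoa had a change of -0.37 ± 0.16 (limma adjusted p = 0.263), with 3 of 6 Car6-/- tracheas below every wild-type trachea, and stood at -0.14 without Car6-/- tracheas 1, 2 and 6. Car6-/- tracheas 2 and 1 held the lowest Tpi1 values of any trachea, and Car6-/- trachea 2 the lowest Aldoa value. Leaving out low values moves both changes toward 0 by itself, and the cause of the low values was not tested. The fit without tracheas 1, 2 and 6 is an alternative only, and the labels give no ground of quality for leaving out this set.

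The other 5 members had adjusted p between 0.378 and 0.984 in this comparison. Pgam1 was the only member of the 7 with a positive change, 0.32 ± 0.18 (95% confidence interval -0.06 to 0.71, adjusted p = 0.378). It stood at 0.20 without Car6-/- trachea 6 and at 0.14 without Car6-/- tracheas 1, 2 and 6. Car6-/- trachea 6 held the highest Pgam1 value, so leaving it out lowers the change by itself. Of the Car6-/- tracheas, 3 of 6 lay above every wild-type trachea for Pgam1, at 8.19, 8.47 and 8.67, and 1 lay below, at 7.35. Hk1 stood at -0.24 (interval -0.56 to 0.07), Slc2a1 at -0.14 (interval -0.37 to 0.08), Hk2 at -0.10 (interval -0.50 to 0.31) and Ldha at -0.01 (interval -0.25 to 0.24). These intervals leave room for changes of either sign, so the members are not shown to be alike in the genotypes.

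**Figure D4:**
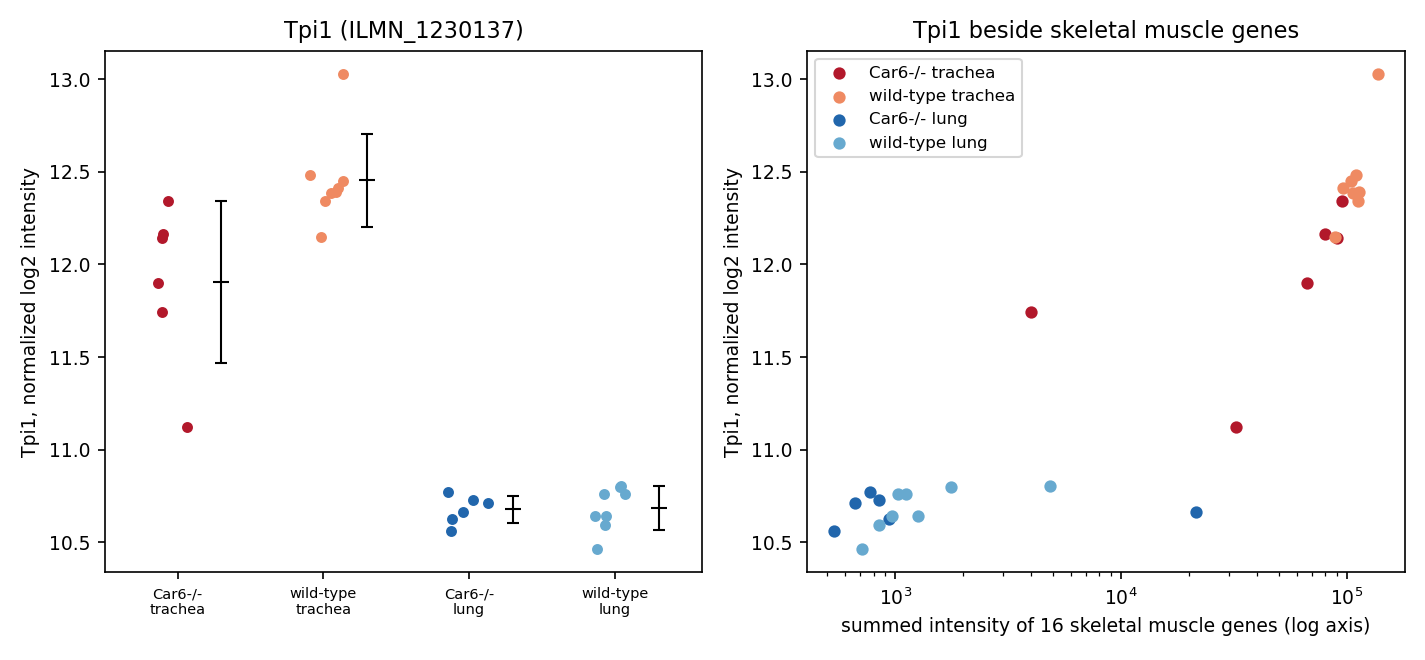
Left, normalized log2 intensity of Tpi1 (ILMN_1230137) by sample with mean ± SD in the 4 groups; right, the same values against the summed intensity of 16 skeletal muscle markers on a log axis. The lowest tracheas for Tpi1 are Car6-/- tracheas 2 and 1, at 11.12 and 11.74, which also have the lowest muscle sums of any trachea, 32172 and 3999; wild-type trachea 4 is highest on both axes.

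All 16 skeletal muscle markers tested had negative changes in Car6-/- trachea, 12 of them with an unadjusted p under 0.05, and 0 were called. Of 13 other glycolysis enzymes tested, 0 were called and 5 had an unadjusted p under 0.05. The muscle forms Eno3 (-1.27 ± 0.34, adjusted p = 0.151), Pfkm (-1.09 ± 0.31, adjusted p = 0.151) and Pgam2 (-1.09 ± 0.34, adjusted p = 0.158) had negative changes, and the liver form Pfkl a positive one (0.68 ± 0.20, adjusted p = 0.151). All 8 thyroid and 7 cartilage markers tested had negative changes as well, and all 6 adipocyte markers positive ones, with 0 called in any of these lists. The part of other tissue in the Tpi1, Aldoa and Pgam1 values was not tested. Between genotypes in trachea, 0 of 6 other glucose transporters, 0 of 9 lactate and pyruvate genes, 0 of 5 gluconeogenesis genes and 0 of 13 hypoxia response genes were called, with 2, 4, 3 and 3 of them at an unadjusted p under 0.05. Of all genes, 17.2% stood under that threshold in this comparison.

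In lung no member was called between Car6-/- and wild-type mice (0 of 7), where 0.0212% of 9417 genes were called by limma. At an unadjusted p under 0.05 stood 0 of 7 members and 9.38% of all genes. The changes ran from -0.07 for Hk2 to 0.10 for Hk1, with adjusted p between 0.846 and 0.994. The 95% confidence intervals were narrow: -0.15 to 0.13 for Tpi1, -0.17 to 0.12 for Ldha, -0.24 to 0.17 for Slc2a1, -0.22 to 0.20 for Aldoa, -0.14 to 0.26 for Pgam1, -0.30 to 0.17 for Hk2 and -0.13 to 0.33 for Hk1. Aldoa, Ldha, Slc2a1 and Tpi1 changed sign under median scaling, with values up to 0.08. Of the 14 other glycolysis enzymes tested in lung, 0 were called and 0 had an unadjusted p under 0.05.

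The genotype effect in trachea minus that in lung was not called for any member (0 of 7), where 0% of 10532 genes were called by limma. At an unadjusted p under 0.05 stood 1 of 7 members and 13.7% of all genes. That member was Tpi1, at -0.55 ± 0.19 (limma adjusted p = 0.216). It passed only without Car6-/- trachea 4 among the alternatives (-0.63, limma adjusted p = 0.0392). Aldoa stood at -0.37 ± 0.19 (adjusted p = 0.394) and Pgam1 at 0.27 ± 0.21 (adjusted p = 0.57). Without Car6-/- trachea 6, Pgam1 stood at 0.14. Without Car6-/- tracheas 1, 2 and 6, Tpi1 stood at -0.23, Aldoa at -0.13 and Pgam1 at 0.08. Of the Car6-/- tracheas, sample 2 held the lowest Tpi1 and Aldoa values and sample 6 the highest Pgam1 value. Without those values the changes move toward 0 by themselves, and the cause of the values was not tested.

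Pgk1 (ILMN_2797973), whose enzyme makes the first ATP of the chain, gave values near background in every group. It ranged from 4.53 to 5.11 in Car6-/- trachea, against 4.27 to 5.21 in wild-type trachea, and from 4.36 to 5.01 in Car6-/- lung, against 4.29 to 4.71 in wild-type lung. The 2 samples that detected it were 1 Car6-/- and 1 wild-type trachea. No comparison of Pgk1 is given, since too few samples detected it.

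Eno1 is the gene next to Car6 on chromosome 4 in the RefSeq gene order, and had no annotated probe. Its near-identical copy Eno1b, which is no member and was looked at after its values were seen, had a probe (ILMN_2953277), and whether that probe also reads Eno1 was not tested. Eno1b ranged from 6.03 over 7.13 to 7.77 in Car6-/- trachea, against 5.71, 6.19 and 6.46 in wild-type trachea, with 4 of 6 Car6-/- tracheas above every wild-type trachea. Its change, 0.81 ± 0.24, was not called (adjusted p = 0.155, each probe on its own). In lung it ranged from 4.60 over 5.16 to 5.52 in Car6-/- mice, against 4.84, 5.04 and 5.38 in wild-type mice, and the groups overlapped. It was called higher in trachea than in lung, by 1.79 ± 0.28 in Car6-/- mice (adjusted p = 0.00018) and 1.05 ± 0.10 in wild-type mice (adjusted p = 7.19e-08). Only 5 of 6 Car6-/- and 4 of 8 wild-type lungs detected Eno1b, so its lung values lie near background.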

How the data were processed

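RNA of 28 samples was measured on 32 Illumina bead arrays, with 150 ng of total RNA per sample, per the labels' protocols. Per the file headers, the deposited values are non-normalized linear intensity for each probe and array, paired with a detection p-value. A further deposited table holds log2 values, which differed by at most 0.0216 from the log2 intensity quantile-normalized within each tissue; it was used as an alternative. The scanner and its software are not stated.

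These intensities were background-corrected with the normexp model of limma 3.58.1 in R 4.3.3 (nec on the detection p, offset 16), quantile-normalized over all 32 arrays and put on the log2 scale; the offset understates changes of dim genes. The 2 arrays of a sample were averaged. Testing a probe needed a detection p under 0.01 in 6 or more compared samples, and each symbol was represented by its brightest probe on average. Linear models (lmFit, eBayes) were fitted on the groups compared, and every adjusted p is limma's with Benjamini-Hochberg adjustment over all genes tested. Where no sample of a group detected a gene, its fold is at least the mean of the brighter group over a floor taken in each dim sample as its lowest detected value, or its own value if that was above it. The procedure was tested on simulated data.

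The members and lists were chosen with earlier results of these data known. All members are named, with up to 8 genes with the smallest p from the other glycolysis enzymes and up to 4 from other lists. The number of arrays limits the precision, and the labels do not say whether samples were processed in batches. Probe positions and sequences were not used here, so binding to near-identical gene copies, which Aldoa, Gapdh, Tpi1, Pgk1, Pgam1 and Ldha are known to have, was not tested. Alternatives are given in the closing text on processing. Of the probes, 23978 carried 1 symbol, 0 several and 1719 none.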

Additional observations from a re-analysis of the deposited data

Results flagged for a closer look

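Of 36 groups of values tested for a sample far from the others, 4 held one; chance gives about 1 in 20. Wild-type trachea 4 was the highest of its group for Aldoa at 13.61 (next 13.10), for Tpi1 at 13.03 (next 12.48) and for Ldha at 13.10 (next 12.56). The same sample had the highest summed intensity of skeletal muscle markers of any sample, 136663. Car6-/- lung 5 was the highest of its group for Aldoa at 11.18 (next 10.62), and its muscle sum, 21441, was the highest of any lung. The part of muscle tissue in these values was not tested.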

How the results depend on the processing

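The members called higher in trachea stayed 6 of 7 in Car6-/- and 7 of 7 in wild-type mice under every alternative run (median scaling, no background correction, an offset of 50, no filter on dim probes, the mean of all probes, first arrays only, all 4 groups in the fit, the replicate block, every probe on its own, which was added after seeing the data, and each sample left out in turn). Of the counts of members called, 263 kept within 1.5 times and 3 moved. The moves were Tpi1 being the 1 member called lower in trachea, with all 4 groups in the fit (1126 genes called in all, against 0) and without Car6-/- trachea 4 (693 genes called), and the 1 called for the difference between tissues without Car6-/- trachea 4. Over samples left out in turn, that count was 0 to 1 in both, and Tpi1 ranged from -0.64 to -0.40 in trachea and from -0.63 to -0.39 for the difference between tissues; the cause was not tested.

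Signs turned only for changes near 0. Median scaling gave 0.0694 for Aldoa, 0.0599 for Ldha, 0.0174 for Slc2a1 and 0.0776 for Tpi1 in lung, -0.10 for Ldha in the difference between tissues and -0.0354 for Hk1 between Car6-/- tissues. The replicate block gave 0.000161 for Ldha in lung and changed no call of a member; same-numbered samples correlated at -0.28 to -0.04 in lung and at -0.18 to 0.54 in trachea. Ldha in trachea stood at 0.0119 with first arrays only and at 0.0054 in the authors' table, and Hk2 without Car6-/- tracheas 1, 2 and 6 at 0.0659 in trachea and 0.13 for the difference between tissues. Over samples left out in turn, the lung change ranged from -0.12 to 0.0298 for Aldoa, -0.066 to 0.016 for Ldha, -0.0049 to 0.11 for Pgam1, -0.0922 to 0.0166 for Slc2a1 and -0.037 to 0.0168 for Tpi1. In trachea it ranged from -0.0521 to 0.0721 for Ldha and -0.23 to 0.0382 for Hk2. For the difference between tissues it ranged from -0.0266 to 0.10 for Ldha and -0.17 to 0.11 for Hk2, and Hk1 between Car6-/- tissues from -0.053 to 0.0868.

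Median scaling put the median change of all genes between tissues at -0.19 in Car6-/- mice (-0.07 with quantile normalization) and at -0.16 in wild-type mice (-0.09). The number of genes called in lung was 0 to 5 over the alternatives that kept all samples (2 in the fit reported), and 44 without Car6-/- lung 7. Dim probes (Hk1, Pgk1, 1 of Tpi1, 1 of Pfkl, and Eno1b in lung) lie near background, which limits what they can show.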
